A study of Homo sapiens with 18 samples.

Results

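MDA-MB-231 is an established human line of triple-negative breast cancer, a tumour type defined by the lack of oestrogen receptor, progesterone receptor and HER2 amplification. Its response to nicotinamide (NAM) was measured by RNA sequencing in 6 of the 18 libraries of a study of 3 such lines, taken by their labels as 3 untreated controls and 3 libraries of cells given 20 mM NAM for 48 h. The other 12 libraries hold BT20 and MDA-MB-468 under the same treatment. Both groups of MDA-MB-231 grew in DMEM with fetal bovine serum and antibiotics. RNA is described as taken before NAM and after 48 h of it, so the controls may predate the treatment, and on that reading a difference between groups also spans 48 h of culture. Neither the labels nor the methods say whether the 3 replicates of a group are separate cultures, and each p-value then measures only the spread between these libraries.

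NAM is the amide form of vitamin B3. Cells turn it into the coenzyme NAD+ through the salvage enzyme NAMPT, and it is also the by-product of the NAD+-consuming sirtuins and PARPs, which it inhibits when present in excess. MDA-MB-231 cells are known as invasive, mesenchymal-like cells that secrete many cytokines and that grow with a high activity of the transcriptional coactivators YAP and TAZ.

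The deposited values are FPKM, fragments scaled to gene length and library depth, for 60676 Ensembl genes. Of these, 13869 reached 1 FPKM in 3 or more of the 6 libraries and were tested on quantile-normalized log2(FPKM + 1) with limma. Values are given below in the order of replicates 1, 2 and 3, and log2 fold changes are NAM minus control on that scale, which understates changes of genes near 1 FPKM. The steps of the FPKM give depths of 11313667, 18896894 and 18971493 reads for the controls and 10864142, 18494984 and 20582295 reads for NAM, so both libraries of replicate 1 were the shallower ones. Replicate 1 also stood apart in both groups, with scores of -24.03 for control 1 and -68.36 for NAM 1 on principal component 1, which took 57.87% of the variance. Scores of the other 4 libraries were 4.14 to 37.37. The second component (29.99%) separated NAM from control within each replicate number. Deviations from the group mean correlated across genes between libraries of the same number (r = 0.74, 0.616 and 0.716). They also did between control 2 and NAM 3 (0.688) and between control 3 and NAM 2 (0.451). The values thus set replicate 1 apart and do not show that 2 pairs with 2 and 3 with 3. Each result comes from 2 fits, 1 on treatment alone and 1 that adds the replicate number as a block. In both groups, long genes tended to lie lower in replicate 1 (Spearman correlation of deviation with gene length -0.246 and -0.315) and higher in the others (0.205 to 0.299). The NAM log2 fold change also correlated with gene length (Spearman -0.134 in both fits, 13835 genes), so longer genes tended to have lower fold changes. The part of gene length in single results was not tested beyond the length-adjusted fit given in the closing section.

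**Figure D1:**
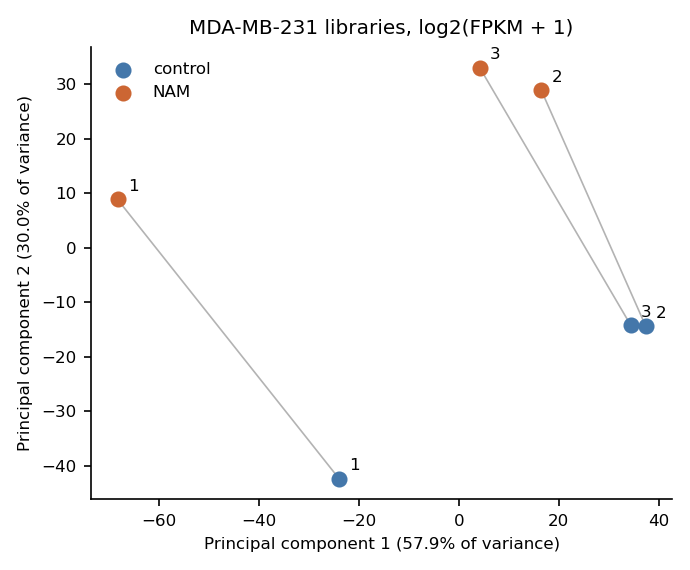
Principal components 1 and 2 of quantile-normalized log2(FPKM + 1) in the 6 MDA-MB-231 libraries, in arbitrary units, with replicate numbers beside the points and a line joining control and NAM of the same number. Replicate 1 lies left of 0 on component 1 in both groups, and NAM lies above its control on component 2 in all 3 pairs.

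The markers matched the label in part. VIM, the mesenchymal filament protein vimentin, had 285, 217 and 222 FPKM in the controls and 276, 189 and 191 with NAM. Of 8 mesenchymal markers 7 passed the filter, and SPARC did not, at no more than 0.239 FPKM. Other genes of mesenchymal cells were low too. CDH2 reached no more than 0.274 FPKM and ZEB2 no more than 0.713, and TWIST1 was at 0 in every library. EPCAM, an epithelial adhesion protein, had 3.42, 2.98 and 3.06 FPKM in the controls and 3.67, 3.16 and 2.76 with NAM, and CDH1 (E-cadherin) was at most 0.0607 FPKM in any library. The receptors that define the tumour type were at background for ESR1 and PGR, while ERBB2 (HER2) had 14.002, 14.3 and 14.8 FPKM in the controls and 16.7, 15.2 and 16.9 with NAM. Of 13 epithelial markers 7 passed the filter, and keratins KRT8, KRT18 and KRT19 were among them, at 61.7 to 189 FPKM, and KRT18 fell with the block. Of 17 markers of fibroblasts, blood cells and vessels 3 passed (PDGFRB, ACTA2 and CD14), 14 stayed below 0.5 FPKM in every library, and their summed level was 6.49 to 6.96 FPKM in the controls and 5.37 to 7.18 with NAM.

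A gene was called when its adjusted p was under 0.05 and its log2 fold change exceeded 0.58 in size. By this rule 115 genes rose (0.829% of those tested) and 151 fell (1.09%) in the fit on treatment alone. With the replicate block 1195 rose (8.62%) and 1007 fell (7.26%). These shares over all genes tested are the background for every list count below. Every NAM library lay above every control for 17.3% of the genes tested and below every control for 10.4%. The block kept all 115 rises and 151 falls and added 1080 rises and 856 falls, with no gene called in opposite directions. The median residual SD was 0.294 without and 0.144 with the block, on the log2 scale. Without between-library normalization the share of rises among the calls went from 43.2% to 59.2%, and from 54.3% to 67.3% with the block. By limma-voom on recovered reads it was 62.5%, and 67.8% with the block. In these bulk samples a change cannot be told apart from a change in the share of cells that express a gene. The calls of the fit on treatment alone rested on the 4 libraries of replicates 2 and 3: without control 2, control 3, NAM 2 or NAM 3 no gene passed (by unadjusted p under 0.05, 780, 796, 1242 and 898 rises and 666, 675, 1167 and 728 falls). Without both libraries of replicate 1 the same fit on the other 4 gave 1082 rises and 1019 falls. The blocked counts dropped to 225 rises and 194 falls without replicate 3, where 410 of the 2202 blocked calls were still made. By unadjusted p under 0.05 that fit gave 1459 rises and 1253 falls, against 1360 and 1171 in the full blocked fit.

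**Figure D2:**
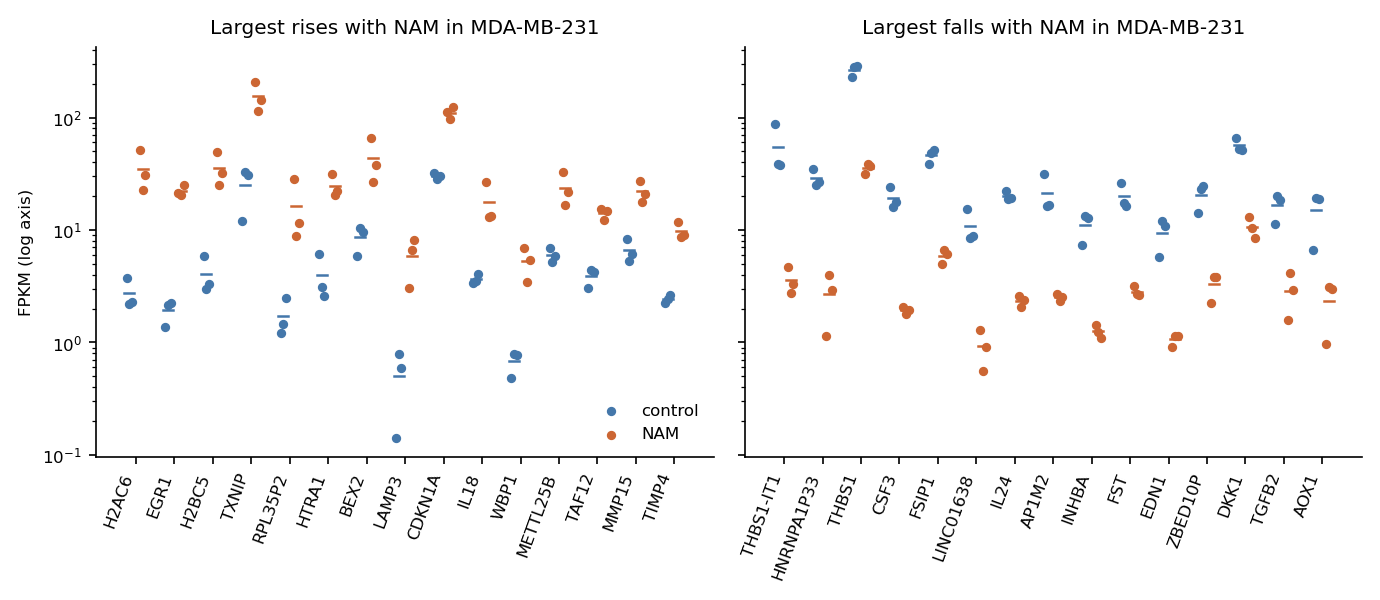
FPKM (log axis) of the 15 largest rises (left) and the 15 largest falls (right) among genes called in the fit on treatment alone, with non-overlapping groups and a higher mean of at least 5 FPKM. Points are libraries (blue control, orange NAM, replicates 1 to 3 from left to right) and bars are means of 3; THBS1 lies above 200 FPKM in each control and below 40 with NAM.

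The largest named rises of the fit on treatment alone were in 2 clustered histone genes and the immediate early gene EGR1. The largest rises and falls of each fit were named only where control and NAM did not overlap. Their separation, here and below, was thus a condition of naming and no further evidence. H2AC6, which encodes histone H2A (chromosome 6, 26124145 to 26139116), had 3.76, 2.19 and 2.31 FPKM in the controls and 51.8, 22.6 and 31.1 with NAM. H2BC5, an H2B gene of the same cluster, had 5.89, 2.98 and 3.33 FPKM in the controls and 49.7, 24.9 and 32.2 with NAM. For both genes replicate 1 was the highest in both groups (log2 fold change 3.11, adjusted p = 0.0159, and 0.00335 with the block for H2AC6; log2 fold change 2.75, adjusted p = 0.0173, and 0.0037 with the block for H2BC5). EGR1, a zinc finger factor induced by ERK signalling and serum, had 1.38, 2.16 and 2.23 FPKM in the controls and 21.1, 20.5 and 25.2 with NAM (log2 fold change 2.94, adjusted p = 0.00947, and 0.00335 with the block), and here the 3 NAM libraries were close to each other.

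Histone genes did not move as 1 group. Of 59 clustered and variant histone genes in the table, 21 passed the filter. 4 rose and none fell on treatment alone (9 rose and 2 fell by unadjusted p under 0.05), and 10 rose and 3 fell with the block, with a median log2 fold change of 0.18 against -0.01 over all genes tested. Within replicate pairs 1 to 3 the list median was -0.09, 0.60 and 0.81, where pair values, here and below, are differences of log2(FPKM + 1) without quantile normalization. H1-2, a linker histone, had 49.98, 13.02 and 14.04 FPKM in the controls and 179, 51.1 and 80.5 with NAM (log2 fold change 2.04, adjusted p = 0.109, and 0.00989 with the block), with the value of control 1 close to that of NAM 2. H2BC12 (40.8, 30.7 and 30.2 FPKM in the controls and 59.4, 69.8 and 87.9 with NAM), H2BC4, H2BC21, H4C8, H4C9 and H2AJ also rose with the block, while H2BC3, H4C2 and H1-4 fell. Most core histone messages lack a poly(A) tail, and the labels name a stranded total RNA kit while the methods name an RNA kit, so how the libraries captured these messages is not clear from the sources.

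Promoters are shown for 8 genes called in at least 1 of the fits, from the histone, immediate early, YAP and SRF, and TXNIP groups. The windows are RefSeq's (GRCh38.p14), from upstream of each start to just past it, read 5' to 3' on the gene's strand, and each was searched on both strands. In H2AC6 (chr6:26123922-26124221, plus strand) and H2BC5 (chr6:26157871-26158170, plus strand) the capitals mark CCAAT or its reverse complement and TATAAA or its reverse complement, found in 34.6% and 11.5% of all 35116 windows.
H2AC6: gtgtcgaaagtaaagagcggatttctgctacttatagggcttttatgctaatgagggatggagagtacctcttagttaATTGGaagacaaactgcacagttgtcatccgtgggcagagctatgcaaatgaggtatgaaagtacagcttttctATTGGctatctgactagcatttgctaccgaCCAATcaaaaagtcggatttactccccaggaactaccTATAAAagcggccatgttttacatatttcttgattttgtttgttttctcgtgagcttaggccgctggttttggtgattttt
H2BC5: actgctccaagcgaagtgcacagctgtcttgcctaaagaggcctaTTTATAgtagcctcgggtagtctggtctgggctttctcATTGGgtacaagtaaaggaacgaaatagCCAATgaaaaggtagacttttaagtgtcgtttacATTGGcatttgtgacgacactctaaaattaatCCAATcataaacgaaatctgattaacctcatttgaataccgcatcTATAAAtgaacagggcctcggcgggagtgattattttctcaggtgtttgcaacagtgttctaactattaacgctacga
In EGR1 (chr5:138465229-138465528, plus strand) the capitals mark the CArG box, the element read by serum response factor, which 1.29% of all windows hold.
EGR1: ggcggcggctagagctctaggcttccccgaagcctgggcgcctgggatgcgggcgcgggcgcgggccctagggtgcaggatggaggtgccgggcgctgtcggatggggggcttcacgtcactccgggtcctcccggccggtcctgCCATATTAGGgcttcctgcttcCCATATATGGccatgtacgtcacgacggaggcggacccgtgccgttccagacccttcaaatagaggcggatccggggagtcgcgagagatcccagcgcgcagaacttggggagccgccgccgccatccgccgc
In THBS1 (chr15:39580829-39581128, plus strand), ANKRD1 (chr10:90921038-90921337, minus strand) and CCN2 (chr6:131951323-131951622, minus strand) the capitals mark CATTCC or its reverse complement, the core element of the TEAD factors that carry YAP, found in 14% of all windows, and in THBS1 also CCAAT.
THBS1: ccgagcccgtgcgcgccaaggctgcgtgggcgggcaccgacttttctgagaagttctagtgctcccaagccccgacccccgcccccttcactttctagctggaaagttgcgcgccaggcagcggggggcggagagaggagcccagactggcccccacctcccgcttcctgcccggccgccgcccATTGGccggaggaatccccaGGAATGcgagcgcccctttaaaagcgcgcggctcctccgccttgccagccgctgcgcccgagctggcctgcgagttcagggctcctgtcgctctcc
ANKRD1: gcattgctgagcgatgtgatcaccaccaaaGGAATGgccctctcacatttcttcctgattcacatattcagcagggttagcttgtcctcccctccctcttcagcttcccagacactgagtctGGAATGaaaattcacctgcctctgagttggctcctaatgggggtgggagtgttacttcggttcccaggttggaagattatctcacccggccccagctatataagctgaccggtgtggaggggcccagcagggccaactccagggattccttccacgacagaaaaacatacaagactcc
CCN2: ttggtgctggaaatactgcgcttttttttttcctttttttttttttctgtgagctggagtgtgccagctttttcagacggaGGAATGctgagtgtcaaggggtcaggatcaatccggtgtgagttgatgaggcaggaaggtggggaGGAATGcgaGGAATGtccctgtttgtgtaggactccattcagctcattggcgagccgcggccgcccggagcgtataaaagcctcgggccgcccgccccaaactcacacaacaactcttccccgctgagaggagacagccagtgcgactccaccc
In TXNIP (chr1:145996530-145996829, minus strand) the capitals mark CCAAT, and in ARRDC4 (chr15:97960453-97960752, plus strand) also CACGTG, the E box, which 7.26% of all windows hold. Another window of TXNIP (chr1:145995695-145995994, minus strand) holds no CCAAT and is not shown.
TXNIP: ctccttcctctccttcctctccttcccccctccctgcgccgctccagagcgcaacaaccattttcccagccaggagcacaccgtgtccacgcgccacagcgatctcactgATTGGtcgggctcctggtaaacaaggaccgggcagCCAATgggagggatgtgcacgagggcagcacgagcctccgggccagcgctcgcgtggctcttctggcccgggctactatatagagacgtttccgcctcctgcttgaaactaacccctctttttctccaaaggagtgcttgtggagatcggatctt
ARRDC4: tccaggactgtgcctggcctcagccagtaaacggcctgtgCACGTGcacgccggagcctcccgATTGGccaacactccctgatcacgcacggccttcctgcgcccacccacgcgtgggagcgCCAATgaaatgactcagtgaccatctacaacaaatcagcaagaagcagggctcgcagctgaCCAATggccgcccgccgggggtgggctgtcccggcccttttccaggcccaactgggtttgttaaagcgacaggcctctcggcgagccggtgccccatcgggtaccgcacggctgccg
A match is a run of letters and not a shown binding site. The AP-1 letters TGACTCA were in 4.95% of all windows and occur once in that of ARRDC4. Of 18 histone genes with a window 15 held CCAAT and 13 TATAAA, and of 27 YAP and SRF target genes 11 held CATTCC.

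THBS1, the secreted matrix protein thrombospondin 1 (chromosome 15, 39581079 to 39599466), had the highest control level of the 15 largest falls. It had 231.1, 280.1 and 289 FPKM in the controls and 31.2, 38.5 and 36.9 with NAM, and the groups were far apart with little spread inside either (log2 fold change -2.88, adjusted p = 0.0136, and 0.0037 with the block). 3 further genes annotated over the same locus were lowered with it. The intronic RNA THBS1-IT1 had 86.9, 38.7 and 37.8 FPKM in the controls and 4.65, 2.73 and 3.31 with NAM (log2 fold change -3.54, adjusted p = 0.0162, and 0.00335 with the block). FSIP1, annotated on the opposite strand with an end inside THBS1, had 39.03, 48.7 and 50.96 FPKM in the controls and 5.02, 6.64 and 6.06 with NAM (log2 fold change -2.82, adjusted p = 0.00947, and 0.00493 with the block), a level between 0.161 and 0.176 times that of THBS1 in all 6 libraries. The antisense RNA THBS1-AS1 had 40.5, 122 and 127 FPKM in the controls and 7.87, 17.1 and 17.2 with NAM (log2 fold change -2.64, adjusted p = 0.0652, and 0.00795 with the block). The labels name a stranded kit, but whether the authors' counting used strand is not given in the sources used here, so reads of THBS1, FSIP1 and THBS1-AS1 cannot be told apart where they overlap. The next neighbour on that side, GPR176, had 4.13, 10.1 and 10.8 FPKM in the controls and 4.01, 5.28 and 6.07 with NAM and was not called in either fit.

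THBS1 belongs to the targets of YAP and serum response factor (SRF), the pair of transcription systems that follow cell spreading and actin. Of 37 tested members of this list 6 fell and none rose on treatment alone (17 fell and 1 rose by unadjusted p under 0.05), and 20 fell and 1 rose with the block, with a median log2 fold change of -0.72 against -0.01 over all genes. On the values without quantile normalization the list median was -0.57, -0.64 and -0.65 in pairs 1 to 3, and these 3 lay close together. Without replicate 1 of both groups 20 fell and 1 rose. ANKRD1, a nuclear ankyrin-repeat protein much used as a YAP reporter, had 136, 157 and 151 FPKM in the controls and 86.2, 33.5 and 28.2 with NAM (log2 fold change -1.82, adjusted p = 0.0649, and 0.0295 with the block), with the smaller fall in pair 1. CCN1, a matricellular protein, had 409.9, 474 and 493 FPKM in the controls and 237, 170.2 and 189.6 with NAM (log2 fold change -1.23, adjusted p = 0.0692, and 0.0121 with the block), and CCN2, its relative, had 90.6, 125 and 124 FPKM in the controls and 78.9, 59.04 and 69.1 with NAM (log2 fold change -0.75, adjusted p = 0.158, and 0.0406 with the block). F3, tissue factor of the clotting cascade, had 115, 121 and 123.1 FPKM in the controls and 49.4, 52.1 and 50.5 with NAM (log2 fold change -1.23, adjusted p = 0.0424, and 0.00795 with the block). In each of these 4 genes every NAM library lay below every control, which held for 10.4% of all genes tested. TRIP6, a LIM adaptor of focal adhesions, had 50.9, 37.5 and 37.6 FPKM in the controls and 19.6, 14.5 and 15.1 with NAM (log2 fold change -1.33, adjusted p = 0.0277, and 0.0066 with the block), and the secreted protein FJX1 and the kinase NUAK2 also fell in both fits (log2 fold changes -1.20 and -0.88). With the block, MYL9, ACTN1 and ACTB of the actin cytoskeleton fell as well, ACTB from 915, 629 and 643 FPKM in the controls to 579, 489 and 481 with NAM. The genes of the factors themselves were not called, with log2 fold changes of -0.44 for YAP1, 0.56 for WWTR1 (TAZ), -0.76 for TEAD1 and 0.03 for SRF. WWTR1 passed the p threshold with the block (adjusted p = 0.0317) but not the fold threshold, as did FOSL1 (0.0256) and GCLC (0.0384), described further on. ACTA2, smooth muscle actin, went against the list at 0.475, 0.48 and 0.425 FPKM in the controls and 2.07, 1.399 and 1.67 with NAM and rose with the block. Its level was low, and FAS, STAMBPL1 and ACTA2-AS1 overlap it on the opposite strand, where reads cannot be told apart.

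Secreted cytokines changed in both directions. Of 27 tested genes of secreted cytokines and growth factors, 7 fell and 2 rose on treatment alone, and 9 fell and 4 rose with the block. Over all genes tested 7.26% fell and 8.62% rose with the block. The list median was 0.024, and -0.238 without replicate 1 of both groups. CSF3, the granulocyte colony-stimulating factor G-CSF, had 24.2, 15.9 and 17.8 FPKM in the controls and 2.07, 1.78 and 1.93 with NAM (log2 fold change -2.83, adjusted p = 0.00947, and 0.00335 with the block). IL24, a cytokine of the IL-10 family, had 22.3, 18.7 and 19.2 FPKM in the controls and 2.605, 2.08 and 2.38 with NAM (log2 fold change -2.71, adjusted p = 0.00947, and 0.0037 with the block), though FCMR overlaps it on the opposite strand. IL6, the inflammatory cytokine that signals through STAT3, had 65.4, 47.3 and 48.4 FPKM in the controls and 16.3, 15.3 and 15.7 with NAM (log2 fold change -1.70, adjusted p = 0.0136, and 0.00493 with the block). The groups of IL6 did not come near each other, and for CSF3 and IL24 separate groups were a condition of naming. For these 3 the NAM libraries differed little. IL1A, an alarmin of the interleukin 1 family, had 7.89, 52.3 and 46.1 FPKM in the controls and 2.56, 3.297 and 2.698 with NAM (log2 fold change -3.00, adjusted p = 0.0738, and 0.0236 with the block), where control 1 was several fold below the other controls and still above every NAM library. CSF2, known as GM-CSF, had 137, 87.2 and 90.4 FPKM in the controls and 74.99, 29.2 and 28.4 with NAM and fell with the block only. EDN1, the vasoconstrictor endothelin 1, had 5.78, 11.9 and 10.8 FPKM in the controls and 0.905, 1.14 and 1.15 with NAM (log2 fold change -2.41, adjusted p = 0.0156, and 0.00873 with the block), and DKK1, a secreted Wnt inhibitor, had 66.3, 52.99 and 51.9 FPKM in the controls and 13.2, 10.4 and 8.55 with NAM (log2 fold change -2.36, adjusted p = 0.0136, and 0.00493 with the block).

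Of 9 tested chemokine genes 2 fell on treatment alone, and 4 fell and 2 rose with the block (7.26% and 8.62% of all genes). CXCL8, the neutrophil attractant interleukin 8, had 86.5, 95.1 and 88.99 FPKM in the controls and 57.9, 23.4 and 25.97 with NAM, CXCL1 had 113, 67.1 and 68.4 FPKM in the controls and 47.9, 17.3 and 20.5 with NAM and CXCL2 had 25.5, 24.5 and 23.6 FPKM in the controls and 10.1, 8.51 and 10.3 with NAM. Control and NAM did not overlap in any of these 3, and CXCL2 alone among them passed without the block (adjusted p = 0.0253, against 0.0671 for CXCL8 and 0.071 for CXCL1). CCL2, a monocyte attractant, fell in both fits from a low level (3.16, 2.08 and 1.91 FPKM in the controls and 0.371, 0.436 and 0.269 with NAM), while CX3CL1 and CCL5, at most 6.16 FPKM in any library, rose with the block. These genes are known to follow NF-kB. Of 21 tested genes of that pathway 4 rose and 4 fell with the block (8.62% and 7.26% of all genes tested). Among its subunits and inhibitors, NFKB2, RELB, NFKBIA and BCL3 rose with the block and NFKBIZ fell. The other falls were in ICAM1, TNFAIP2 and IKBKE, which are neither subunits nor inhibitors.

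Ligands of the EGF receptor family were split. AREG, amphiregulin, had 61.1, 46.4 and 45.97 FPKM in the controls and 160.5, 104 and 104 with NAM and rose (log2 fold change 1.23, adjusted p = 0.0201, and 0.00764 with the block). HBEGF, the heparin-binding ligand, had 57.1, 64.1 and 64.3 FPKM in the controls and 24.9, 28.2 and 31.7 with NAM and fell (log2 fold change -1.11, adjusted p = 0.0442, and 0.00861 with the block). NRG1, the ligand of ERBB3 and ERBB4, fell from 3.904, 2.65 and 2.74 FPKM in the controls to 0.452, 0.601 and 0.604 with NAM, and TGFA rose with the block (10.5, 13.4 and 14.1 FPKM in the controls and 16.3, 20.9 and 23.1 with NAM). IL18, an inflammasome cytokine, rose in both fits from 3.39, 3.56 and 4.03 FPKM in the controls to 26.6, 13.2 and 13.2 with NAM. ANGPTL4, a secreted inhibitor of lipoprotein lipase and a PPAR target, rose with the block. It had 1.07, 0.428 and 0.469 FPKM in the controls and 65.4, 8.04 and 11.8 with NAM (log2 fold change 3.41, adjusted p = 0.0662, and 0.0116 with the block), so NAM 1 lay several fold above the other NAM libraries, and the log2 difference was 5.00 in pair 1, 2.66 in pair 2 and 3.12 in pair 3.

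**Figure D3:**
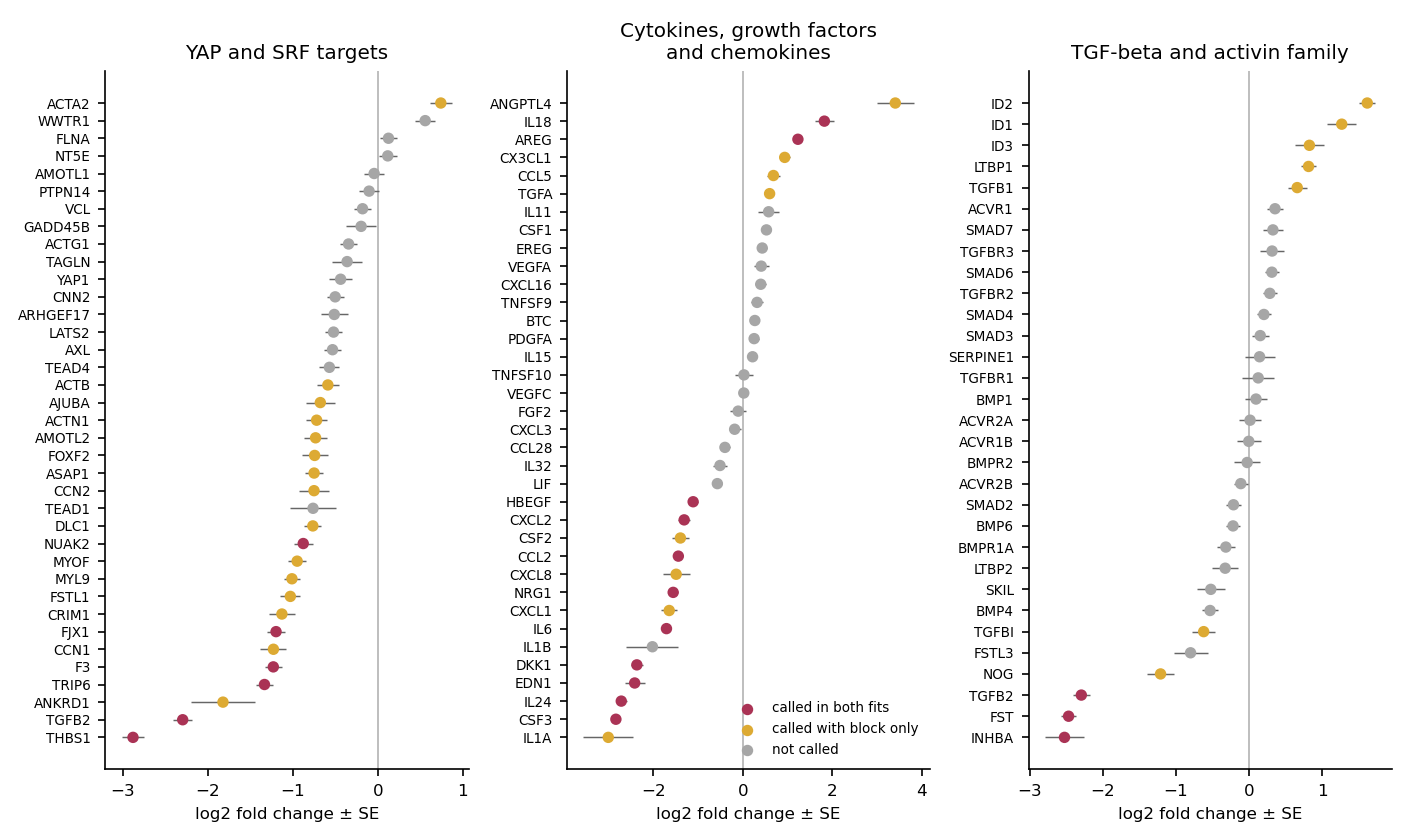
Log2 fold change, NAM minus control, with its SE from the fit with the replicate block (n = 3 per group), in MDA-MB-231 for the tested members of 4 gene lists (YAP and SRF targets; cytokines and chemokines together; TGF-beta and activin family). Red genes were called in both fits, yellow genes with the block only and grey genes in neither; members of the left panel lie mostly below 0, and those of the other panels on both sides.

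The TGF-beta and activin family had falls and rises. Of 31 tested genes 3 fell on treatment alone with none rising (4 rose and 5 fell by unadjusted p under 0.05). With the block 5 fell and 5 rose (7.26% and 8.62% of all genes). INHBA, the subunit of activin A, had 7.405, 13.3 and 12.8 FPKM in the controls and 1.43, 1.25 and 1.09 with NAM (log2 fold change -2.52, adjusted p = 0.0163, and 0.00997 with the block). FST, follistatin, which binds and blocks activin, had 26.02, 17.4 and 16.4 FPKM in the controls and 3.18, 2.69 and 2.63 with NAM (log2 fold change -2.47, adjusted p = 0.0156, and 0.00335 with the block). TGFB2 had 11.3, 20.1 and 18.7 FPKM in the controls and 1.58, 4.16 and 2.94 with NAM (log2 fold change -2.29, adjusted p = 0.0173, and 0.00441 with the block), and TGFB2-AS1 on the opposite strand fell too. In all 3 genes every NAM library lay below every control, which the rule for naming the largest falls required. NOG, the BMP antagonist noggin, fell with the block from 61.1, 21.6 and 22.5 FPKM in the controls to 34.7, 7.38 and 9.27 with NAM, where NAM 1 exceeded controls 2 and 3. The inhibitor of differentiation genes, which BMP signals raise, went up with the block: ID1 had 328, 106 and 106 FPKM in the controls and 617, 276 and 289 with NAM, ID2 had 1.16, 0.383 and 0.381 FPKM in the controls and 6.24, 3.27 and 3.69 with NAM and ID3 had 84.4, 24.1 and 25.9 FPKM in the controls and 111, 48.3 and 54.7 with NAM. In ID1 and ID3 the groups overlapped through control 1, which lay above NAM 2 and NAM 3. TGFBI, a matrix protein induced by TGF-beta, had 46.8, 48.2 and 47.3 FPKM in the controls and 39.2, 26.1 and 29.4 with NAM and fell with the block, and TGFB1 and LTBP1 rose with it (log2 fold changes 0.66 and 0.81).

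Mitotic genes had lower list medians with NAM in every pair, by amounts that depended on the pair. Of 44 tested genes of mitosis and the spindle none was called on treatment alone by limma (17 fell by unadjusted p under 0.05; none by limma-voom on recovered reads) and 21 fell with the block (18 with voom and the block). No member had a positive log2 fold change, and the median was -0.82. The list median was -1.76 in pair 1, -0.31 in pair 2 and -0.69 in pair 3, against -0.01, 0.10 and 0.09 over all genes. Without replicate 1 of both groups 12 fell. MKI67, the proliferation antigen Ki-67, had 21.2, 48.9 and 44.2 FPKM in the controls and 2.47, 30.5 and 19.4 with NAM (log2 fold change -1.47, adjusted p = 0.367, and 0.0407 with the block), and its groups overlapped through control 1. PLK1, a mitotic kinase, had 48.8, 44.9 and 46.1 FPKM in the controls and 10.3, 25.1 and 22.2 with NAM (log2 fold change -1.28, adjusted p = 0.0844, and 0.0213 with the block), and CDC20, an activator of the anaphase-promoting complex, had 199, 179 and 187 FPKM in the controls and 53.8, 97.2 and 91.4 with NAM (log2 fold change -1.22, adjusted p = 0.121, and 0.0172 with the block). In PLK1 and CDC20 the controls lay close together and the spread was in the NAM libraries, with NAM 1 the lowest. CCNA2, AURKA, KIF23, TPX2 and BUB1B followed the same order of pairs.

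DNA replication genes had a smaller median difference. Of 48 tested, 10 fell with the block and none rose, with none called on treatment alone by limma (9 fell by unadjusted p under 0.05; none by voom). The median was -0.43, and -0.77, -0.21 and -0.27 in pairs 1 to 3. RRM2, a subunit of ribonucleotide reductase, had 23.6, 26.3 and 26.9 FPKM in the controls and 5.77, 13.7 and 11.4 with NAM (log2 fold change -1.30, adjusted p = 0.0595, and 0.0118 with the block), and UHRF1, which keeps DNA methylation through replication, had 34.5, 45.3 and 44.5 FPKM in the controls and 11.8, 27.8 and 26.7 with NAM. Of 19 genes of G1 cyclins, RB and E2F 4 fell with the block: E2F8, CDK6, CDC25A and SKP2. CCND1, cyclin D1, was not called (-0.34). CDKN1A, the CDK inhibitor p21, rose in both fits. It had 31.99, 28.2 and 30.4 FPKM in the controls and 111, 97.7 and 123.1 with NAM (log2 fold change 1.87, adjusted p = 0.0163, and 0.0066 with the block), and the 3 pairs differed little, with log2 differences of 1.77, 1.76 and 1.98.

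CDKN1A is also the best-known p53 target, and MDA-MB-231 is known to carry mutant p53. Of 21 tested genes of the p53 target list 3 rose on treatment alone (CDKN1A, XPC and TP53INP1) with no fall (6 rose and 1 fell by unadjusted p under 0.05), and 6 rose and 1 fell with the block. XPC, a DNA damage sensor of nucleotide excision repair, had 2.41, 4.27 and 4.61 FPKM in the controls and 9.304, 9.66 and 11.4 with NAM, and TP53INP1, a stress-induced nuclear protein, had 0.83, 1.19 and 1.35 FPKM in the controls and 2.48, 4.503 and 4.12 with NAM. BBC3, the pro-apoptotic protein PUMA, had 4.503, 2.88 and 2.98 FPKM in the controls and 21.3, 6.21 and 8.01 with NAM and rose with the block, with the highest value in NAM 1. Outside the list, BCL2L11, the pro-apoptotic protein BIM, rose with the block too (2.603, 3.69 and 3.94 FPKM in the controls and 4.25, 6.58 and 7.47 with NAM). AEN, a nuclease, fell with the block (13.3, 19.1 and 20.7 FPKM in the controls and 5.58, 9.59 and 10.99 with NAM).

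Other immediate early genes had smaller differences than EGR1. Of 21 tested genes EGR1 was the only one called on treatment alone (7 rose and 2 fell by unadjusted p under 0.05), and 7 rose and 2 fell with the block. JUNB had 40.1, 24.3 and 25.8 FPKM in the controls and 125, 52.5 and 71.2 with NAM and JUND had 58.2, 25.8 and 28.3 FPKM in the controls and 147, 58.9 and 69.4 with NAM, both subunits of AP-1. FOS stayed low at 0.305, 0.482 and 0.381 FPKM in the controls and 1.13, 1.51 and 1.69 with NAM, and JUN (-0.23) and FOSL1 (-0.52) were not called. Of 17 tested ERK feedback genes none was called on treatment alone, and 3 rose and 1 fell with the block. Their median was 0.04, near that of all genes (-0.01). DUSP6 and DUSP5, phosphatases that switch off ERK, and SPRY4 rose with the block. DUSP6 went from 25.4, 38.7 and 36.5 FPKM in the controls to 62.6, 53.5 and 57.5 with NAM. ETV4 fell with the block, from 39.1, 30.5 and 32.6 FPKM in the controls to 28.9, 18.8 and 20.3 with NAM.

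TXNIP, an arrestin-domain protein that binds thioredoxin and lowers glucose uptake, had 11.99, 32.7 and 31.2 FPKM in the controls and 206, 115 and 144 with NAM (log2 fold change 2.60, adjusted p = 0.028, and 0.0109 with the block). Each NAM library was far above each control, and the step was largest in pair 1, where the control was the lowest and the NAM library the highest. Its relative ARRDC4 had 0.435, 1.03 and 0.96 FPKM in the controls and 3.56, 5.26 and 6.08 with NAM (log2 fold change 1.59, adjusted p = 0.0164, and 0.0057 with the block), and ARRDC3 rose with the block (4.73, 8.87 and 7.94 FPKM in the controls and 10.8, 20.6 and 14.7 with NAM). Both TXNIP and ARRDC4 are known targets of the glucose-sensing factor MondoA, whose gene MLXIP was not called (log2 fold change -0.02, adjusted p = 0.882 with the block). SLC2A1, the glucose transporter GLUT1, had 129, 128 and 133 FPKM in the controls and 59.99, 37.8 and 40.9 with NAM and fell (log2 fold change -1.53, adjusted p = 0.023, and 0.0119 with the block). HK2, the first enzyme of glycolysis, fell with the block from 5.48, 12.97 and 12.7 FPKM in the controls to 3.72, 5.75 and 6.395 with NAM. Of 30 tested genes of glycolysis and the hypoxia response no others than SLC2A1, HK2 and ENO2 were called, and the list median was -0.003, next to that of all genes.

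Lysosomal genes were mostly higher with NAM, by modest amounts. Of 48 tested, 41 had a positive log2 fold change, and the median was 0.37 against -0.01. 1 rose and none fell on treatment alone (13 rose and 2 fell by unadjusted p under 0.05), and 12 rose and 1 fell with the block. For 25 of the 48 every NAM library lay above every control, against 17.3% over all genes tested. LAMP3, a membrane protein of late endosomes, was the largest at 0.14, 0.783 and 0.599 FPKM in the controls and 3.06, 6.59 and 8.13 with NAM (log2 fold change 2.01, adjusted p = 0.0212, and 0.0066 with the block). PSAP, the precursor of the saposins, had 197, 230.8 and 242 FPKM in the controls and 504, 351 and 406 with NAM, NEU1, a sialidase, had 27.4, 18.95 and 19.4 FPKM in the controls and 54.9, 37.7 and 48.5 with NAM, and TPP1, a peptidase, had 6.19, 8.69 and 8.88 FPKM in the controls and 14.1, 15.1 and 18.7 with NAM. All 3 rose with the block, and their NAM libraries lay above their controls. Without replicate 1 of both groups 9 rose and 2 fell. CTSS, a cathepsin, fell with the block (3.26, 4.39 and 4.27 FPKM in the controls and 1.94, 2.14 and 2.303 with NAM). Of 38 autophagy genes 7 rose with the block and none fell, and SQSTM1, the cargo receptor p62, rose in both fits (116, 81.6 and 86.1 FPKM in the controls and 243, 138 and 178 with NAM, log2 fold change 0.95, adjusted p = 0.042, and 0.0108 with the block). ULK1, the starting kinase of autophagy, had 3.76, 3.62 and 4.05 FPKM in the controls and 8.48, 6.94 and 8.78 with NAM.

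Genes of the ATF4 response, which amino acid shortage and other stresses raise, were mostly higher with NAM. Of 32 tested, 8 rose and 1 fell with the block and none did on treatment alone by limma (9 rose by unadjusted p under 0.05; none by voom), and 28 had a positive log2 fold change. The list median was 0.77 in pair 1, 0.17 in pair 2 and 0.31 in pair 3. CHAC1, which degrades glutathione, had 9.96, 17.96 and 18.6 FPKM in the controls and 31.3, 31.8 and 43.7 with NAM, TRIB3, a pseudokinase, had 23.9, 43.9 and 45.1 FPKM in the controls and 83.02, 62.7 and 88.6 with NAM, and DDIT3, the factor CHOP, had 36.6, 28.3 and 28.5 FPKM in the controls and 112, 40.6 and 49.1 with NAM. Every NAM library exceeded every control in these 3. SLC7A5, a leucine transporter, fell with the block only, and its groups overlapped (155, 218 and 227 FPKM in the controls and 78.8, 135 and 156 with NAM).

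In the list of NRF2 targets, glutathione and the pentose phosphate pathway, 3 of 34 tested genes rose on treatment alone with no fall (8 rose by unadjusted p under 0.05), and 10 rose with the block. CAT, catalase, had 14.8, 17.2 and 16.7 FPKM in the controls and 31.6, 28.7 and 28.9 with NAM (log2 fold change 0.81, adjusted p = 0.0477, and 0.0124 with the block). GSR, glutathione reductase, had 14.3, 21.6 and 20.999 FPKM in the controls and 31.2, 35.2 and 42.2 with NAM, and PGD, an NADPH-making enzyme of the pentose phosphate pathway, had 35.7, 38.6 and 40.8 FPKM in the controls and 64.5, 63.5 and 70.9 with NAM. NAM and control did not overlap in any of these 3. GCLC and GCLM, which make glutathione, were not called (0.49 and 0.34).

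The study names genes of NAD+ use, oxidative phosphorylation, lipid metabolism, glutathione and apoptosis, and 30 of 35 passed the filter here. Of these 2 rose on treatment alone (IDH1 among them; 12 rose by unadjusted p under 0.05), 13 rose with the block and none fell, with a median of 0.52. These genes were picked by the study on these samples, so the count is no independent evidence of their direction. IDH1, the cytosolic NADPH-making isocitrate dehydrogenase, had 8.63, 13.6 and 13.7 FPKM in the controls and 30.6, 27.2 and 30.3 with NAM (log2 fold change 1.22, adjusted p = 0.0377, and 0.0111 with the block). CPT1A, the gate of fatty acids into mitochondria, had 8.39, 10.2 and 10.99 FPKM in the controls and 19.2, 32.9 and 38.9 with NAM (log2 fold change 1.49, adjusted p = 0.058, and 0.0118 with the block), and SLC25A20, the carnitine carrier, had 8.15, 7.25 and 6.998 FPKM in the controls and 14.5, 13.99 and 16.2 with NAM. Of 27 tested genes of fatty acid oxidation 5 rose with the block and none fell (none on treatment alone; 4 rose by unadjusted p under 0.05 and 1 by voom), with a median of 0.32. Without replicate 1 of both groups 3 rose. PDK4, a kinase that shuts pyruvate out of mitochondria, rose in both fits from 0.408, 0.687 and 0.835 FPKM in the controls to 3.24, 3.69 and 2.71 with NAM.

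Few respiratory chain genes were called. Of 33 tested genes of complex I 1 rose with the block, NDUFA2 (80.9, 28.1 and 29.6 FPKM in the controls and 152, 50.7 and 55.3 with NAM), whose groups overlap through control 1. None of 40 genes of complexes II to V, of 13 genes of mitochondrial DNA or of 74 cytosolic ribosomal proteins was called in either limma fit. By unadjusted p under 0.05 on treatment alone, and by limma-voom with or without the block, the counts of these 3 lists were also 0. Of 51 genes of glycerophospholipid and sphingolipid metabolism 9 rose and 2 fell with the block (8.62% and 7.26% of all genes). PLD3, a lysosomal phospholipase D family member, rose in both fits (29.3, 28.4 and 29.99 FPKM in the controls and 94.3, 50.8 and 62.4 with NAM), SMPD1, acid sphingomyelinase, rose with the block (30.5, 17.6 and 18.5 FPKM in the controls and 59.4, 39.1 and 46.1 with NAM), and UGCG, which makes glucosylceramide, fell with it (42.8, 50.97 and 51.96 FPKM in the controls and 24.99, 25.4 and 21.6 with NAM).

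Genes that handle nicotinamide itself changed in both directions. Of 18 tested genes of NAD+ synthesis and turnover 1 fell on treatment alone. With the block 3 rose and 3 fell (8.62% and 7.26% of all genes). AOX1, an aldehyde oxidase that also oxidizes nicotinamide metabolites, had 6.699, 19.2 and 18.95 FPKM in the controls and 0.97, 3.14 and 2.97 with NAM (log2 fold change -2.29, adjusted p = 0.0468, and 0.0057 with the block). NAMPT, the salvage enzyme, had 52.4, 73.2 and 65.9 FPKM in the controls and 45.2, 72.7 and 57.5 with NAM and NNMT, which methylates NAM, had 68.4, 25.9 and 28.7 FPKM in the controls and 71.5, 16.7 and 19.3 with NAM, and neither was called. NMRK1, a nicotinamide riboside kinase, had 1.67, 0.986 and 0.764 FPKM in the controls and 5.38, 2.35 and 2.23 with NAM, NADSYN1, the NAD synthase, had 3.397, 3.003 and 3.34 FPKM in the controls and 6.95, 5.64 and 6.75 with NAM, and both rose with the block. Of 26 sirtuin and PARP genes none was called on treatment alone by limma or voom (1 rose and 1 fell by unadjusted p under 0.05), and SIRT4 rose (1.23, 1.04 and 0.82 FPKM in the controls and 4.97, 2.39 and 2.62 with NAM) and TIPARP fell (6.68, 14.4 and 14.4 FPKM in the controls and 3.797, 8.55 and 8.199 with NAM) with the block. SIRT1, at 4.42, 7.69 and 7.87 FPKM in the controls and 3.95, 10.99 and 7.58 with NAM, and PARP1, at 39.1, 58.7 and 59.9 FPKM in the controls and 27.8, 44.3 and 49.3 with NAM, were not called.

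Interferon-stimulated genes split into a few that rose, fewer that fell and many that were not called. Of 36 tested, 2 rose on treatment alone, and 7 rose and 3 fell with the block. Over all genes tested 8.62% rose and 7.26% fell with the block. The falls were in OAS3, GBP1 and CGAS, and among the rises IFIT2 had overlapping groups. IRF7, the factor that drives type I interferon genes, had 8.63, 3.55 and 4.04 FPKM in the controls and 37.2, 17.7 and 21.97 with NAM (log2 fold change 1.997, adjusted p = 0.0602, and 0.00493 with the block), and OASL had 2.81, 4.26 and 3.99 FPKM in the controls and 10.4, 10.5 and 13.1 with NAM (log2 fold change 1.33, adjusted p = 0.0221, and 0.00989 with the block). STING1, the adaptor of the cytosolic DNA sensor, had 2.62, 2.603 and 3.09 FPKM in the controls and 7.39, 6.47 and 7.56 with NAM (log2 fold change 1.01, adjusted p = 0.0487, and 0.0104 with the block), while CGAS, the sensor itself, fell with the block (19.04, 17.1 and 18.1 FPKM in the controls and 9.68, 11.7 and 11.9 with NAM). In IRF7, OASL and STING1 every NAM library lay above every control. ISG15, MX1 and IFIT1 were not called (0.17, 0.18 and 0.30). PSMB9, B2M and HLA-E of antigen presentation rose with the block, and TAP2 fell with it.

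Matrix genes had more falls than rises. Of 37 tested genes of collagens and matrix 2 fell on treatment alone, THBS1 and CCDC80. With the block 10 fell and 1 rose (7.26% and 8.62% of all genes). The list median was -0.29, and it was 0.02 in pair 1, -0.36 in pair 2 and -0.20 in pair 3, so the direction did not hold in pair 1. LOX, which cross-links collagen, had 8.13, 7.86 and 7.48 FPKM in the controls and 4.198, 2.64 and 2.38 with NAM, and COL5A1 had 15.04, 12.02 and 12.8 FPKM in the controls and 7.75, 8.19 and 8.11 with NAM. PLAU, the protease urokinase, had 146, 186 and 198 FPKM in the controls and 101, 69.2 and 74.1 with NAM and fell with the block (log2 fold change -1.14, adjusted p = 0.0789, and 0.024 with the block). HTRA1, a secreted serine protease, rose in both fits from 6.13, 3.105 and 2.6004 FPKM in the controls to 31.7, 20.4 and 22.4 with NAM (log2 fold change 2.35, adjusted p = 0.0272, and 0.0057 with the block), as did the membrane protease MMP15 (8.36, 5.303 and 6.105 FPKM in the controls and 27.2, 17.9 and 20.97 with NAM) and the inhibitor TIMP4 (2.22, 2.44 and 2.65 FPKM in the controls and 11.9, 8.604 and 8.99 with NAM). CAV1, caveolin 1, was the only one of 7 tested mesenchymal markers that fell (147, 155 and 144 FPKM in the controls and 60.2, 59.9 and 49.7 with NAM). AP1M2, a clathrin adaptor subunit of epithelial cells, had 31.3, 16.4 and 16.6 FPKM in the controls and 2.702, 2.34 and 2.52 with NAM (log2 fold change -2.65, adjusted p = 0.0166, and 0.0037 with the block), and ESRP2, an epithelial splicing regulator, had 3.05, 5.04 and 5.14 FPKM in the controls and 1.08, 1.605 and 1.78 with NAM and fell in both fits. The epithelial gene CLDN3 rose with the block.

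RNA-binding proteins of the hnRNP and SR families and paraspeckles had a median of -0.36. Of 39 tested genes 2 fell on treatment alone and 4 with the block. Over all genes 1.09% and 7.26% fell, so the blocked count was near the share of all genes. PSPC1, a paraspeckle protein, had 13.7, 18.4 and 17.4 FPKM in the controls and 4.32, 7.94 and 7.07 with NAM (log2 fold change -1.31, adjusted p = 0.0277, and 0.00645 with the block), and HNRNPD, which binds AU-rich elements, had 64.2, 55.7 and 53.7 FPKM in the controls and 22.2, 30.7 and 27.3 with NAM (log2 fold change -1.06, adjusted p = 0.0469, and 0.0126 with the block). The list median was -0.83 in pair 1, -0.17 in pair 2 and -0.28 in pair 3. The pseudogenes HNRNPA1P33 (34.8, 24.997 and 26.9 FPKM in the controls and 1.15, 3.95 and 2.94 with NAM), RPL35P2 and RPL39P40 were also among the largest changes, and reads of such copies can stem from their parent genes or be split between copies, so their values are uncertain. The remaining genes of the largest changes were BEX2 (5.86, 10.3 and 9.64 FPKM in the controls and 65.3, 26.7 and 38.2 with NAM), WBP1, METTL25B, TAF12 and HHLA3, which rose, and LINC01638 (15.5, 8.45 and 8.87 FPKM in the controls and 1.304, 0.553 and 0.917 with NAM) and ZBED10P, which fell. HHLA3 was called with the block only, and ZBED10P overlaps LRRC61 on its own strand.

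**Figure D4:**
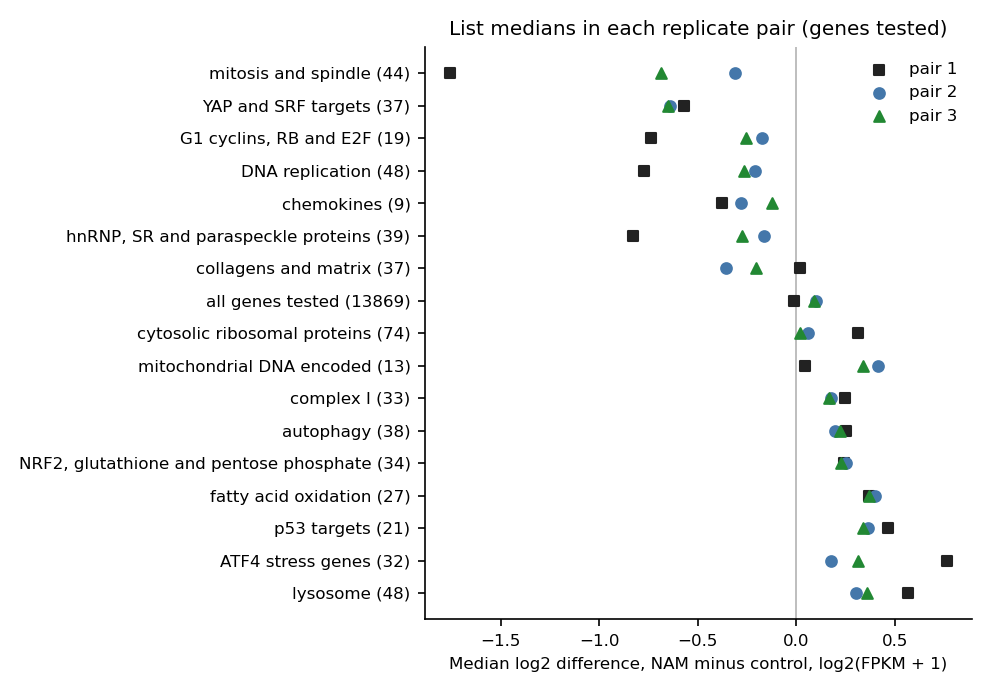
Median log2 difference, NAM minus control of the same replicate number on log2(FPKM + 1) without quantile normalization, over the tested members of 16 gene lists and over all genes tested, for replicate pairs 1 to 3. Mitosis lies at -1.76 in pair 1 against -0.31 and -0.69, while the YAP and SRF targets lie between -0.65 and -0.57 in all pairs.

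MDA-MB-231 was set against the mean NAM effect of BT20 and MDA-MB-468 in a fit of all 18 libraries over 11861 genes expressed in each line. The effect was higher in MDA-MB-231 for 116 genes (0.978%) and lower for 51 (0.430%) at an adjusted p under 0.05, and for 632 (5.33%) and 411 (3.47%) with replicate number within line as a block. BT20 was kept in another medium (RPMI) than the others, so medium and line cannot be told apart there. THBS1 had the largest difference among the 10 genes named for it. Its mean was 19.2 ± 4.99 FPKM in BT20 controls and 23.9 ± 5.35 with NAM, and 8.68 ± 4.55 and 10.4 ± 0.436 in MDA-MB-468, so its control level was highest in MDA-MB-231 (means are of 3 libraries, ± SD). DKK1 and EDN1 also fell more in MDA-MB-231, although EDN1 was lower with NAM in MDA-MB-468 as well, at 66.0 ± 12.6 and 21.8 ± 0.937 FPKM. AP1M2 was at 249 ± 25.7 FPKM in MDA-MB-468 controls and 265 ± 27.9 with NAM, against the fall in MDA-MB-231. STING1 had the opposite sign, with 8.72 ± 0.364 and 4.22 ± 0.750 FPKM in BT20 and 12.7 ± 1.25 and 5.18 ± 0.959 in MDA-MB-468. The rise of EGR1 was larger in MDA-MB-231 (interaction 1.57, SE 0.31, adjusted p = 0.0150), where its control level was the lowest of the 3 lines. The effect on CDKN1A was 0.01 from the mean of the others (SE 0.40, adjusted p = 0.997), which does not show that it was equal. For MKI67 the difference was -0.47 (SE 0.65, adjusted p = 0.796).

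**Figure D5:**
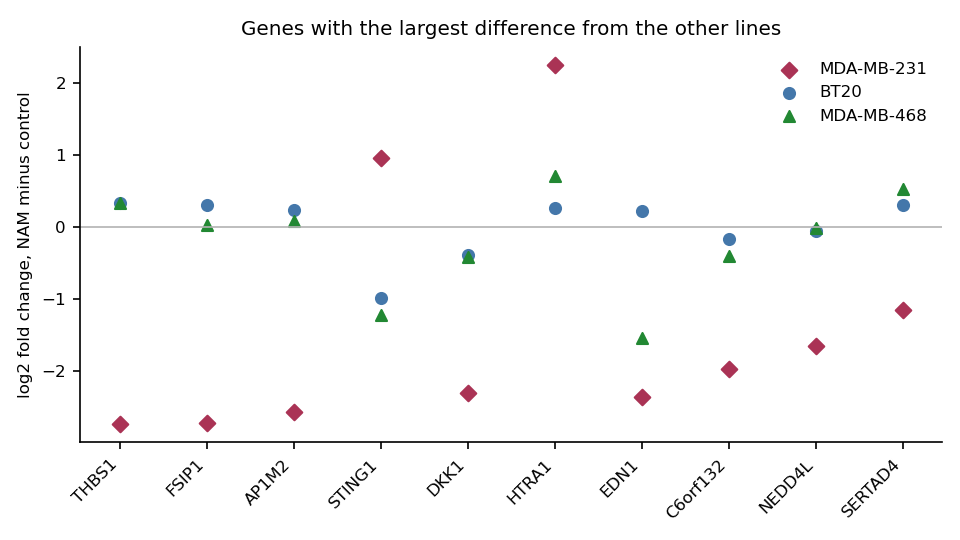
Log2 fold change, NAM minus control, in MDA-MB-231 (diamonds), BT20 (circles) and MDA-MB-468 (triangles), from 1 fit of all 18 libraries (n = 3 per group), for the 10 genes called in MDA-MB-231 with the largest difference from the mean of the other lines. THBS1 lies at -2.74 in MDA-MB-231 and at 0.33 in each of the others, and STING1 lies above 0 in MDA-MB-231 alone.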

How the data were processed

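RNA of MDA-MB-231 cells was sequenced as paired reads. The authors trimmed reads, aligned them to GRCh38 and counted them per gene of Ensembl release 99, and the deposited FPKM are their values; the submitters' processing notes name cutadapt 2.8, TopHat2 2.1.1 and HTSeq 0.11.3. The strand setting of the counting is not given in the sources used here.

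From the FPKM, genes with at least 1 FPKM in at least 3 of the 6 libraries were kept, values were taken as log2(FPKM + 1), quantile-normalized and tested with limma 3.58.1 in R 4.3.3 (two-sided moderated test on treatment, Benjamini-Hochberg adjustment over all genes kept). Calls needed an adjusted p under 0.05 together with a log2 fold change beyond 0.58 in either direction. With 3 libraries against 3, an exact permutation test of a single gene cannot go below 0.1. Replicate numbers come from the labels. Same-numbered libraries deviated together (r = 0.74, 0.616 and 0.716; between numbers 2 and 3 of different groups 0.688 and 0.451), so a fit with the number as a block was set beside the first.

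The FPKM steps gave whole reads, within 0.01 reads, for 39934 of 39935 genes and 13868 of 13869 tested genes. These reads, 11504961 to 21666276 per library, were also tested with limma-voom. Other alternatives were the normalization, pseudocount, filter, leaving out libraries and, chosen after seeing the data, removal of each library's trend with gene length. The fits were also run on simulated data. There replicate 1 did not stand apart beyond its depth and no gene length trend was built in, so that run does not cover these features.

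Genes named are the 15 largest rises and falls per fit among calls with non-overlapping groups and a higher mean of at least 5 FPKM, up to 6 called members per direction of each list described plus its best-known members, the genes the study names, and the 10 largest differences between lines. Lists and members were chosen with earlier results of these data known, so a list's count is a description. Promoters are from RefSeq (GRCh38.p14).

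Some genes are not reported here by name, though list counts include them.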

Additional observations from a re-analysis of the deposited data

Results flagged for a closer look

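For 10 genes called in MDA-MB-231 the NAM effect differed from the mean effect in BT20 and MDA-MB-468 by the test of the difference itself, limma's contrast in 1 fit of all 18 libraries with Benjamini-Hochberg adjustment (log2 scale, 3 libraries per group). The difference was -3.07 for THBS1 (adjusted p = 0.000761), with effects of -2.74 in MDA-MB-231 and 0.33 in each other line. It was -2.90 for FSIP1 (adjusted p = 9.32e-06), which overlaps THBS1, and -2.72 for AP1M2 (adjusted p = 3.33e-05). STING1 differed by 2.06 (adjusted p = 0.000155), with effects of 0.96 in MDA-MB-231, -0.99 in BT20 and -1.22 in MDA-MB-468.

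The secreted proteins followed. DKK1 differed by -1.90 (adjusted p = 0.000761), HTRA1 by 1.77 (adjusted p = 0.00624) and EDN1 by -1.71 (adjusted p = 0.00115), and for EDN1 the effect in MDA-MB-468 was -1.54. C6orf132 differed by -1.70 (adjusted p = 0.0103), with effects of -1.98, -0.17 and -0.40 in MDA-MB-231, BT20 and MDA-MB-468. NEDD4L, a ubiquitin ligase, differed by -1.63 (adjusted p = 0.000657), with -1.66 in MDA-MB-231 and -0.06 and -0.01 in the others. SERTAD4 differed by -1.57 (adjusted p = 0.000657), with -1.16 in MDA-MB-231 and 0.31 and 0.52 in the others.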

How the results depend on the processing

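Against 115 rises and 151 falls, the replicate block gave 1195 and 1007, limma-voom on recovered reads 205 and 123, and voom with the block 1872 and 890. Median scaling gave 60 and 104, a filter of 1 FPKM in all 6 libraries 46 and 76, no filter 181 and 245, and removal of the gene length trend, chosen after seeing the data, 219 and 236 (1162 and 1005 with the block). With the replicate block, no normalization gave 1546 and 750 and median scaling 1225 and 1027. Leaving out 1 library gave 0 to 122 rises and 0 to 211 falls, with 0 of both without control 2, control 3, NAM 2 or NAM 3. Leaving out replicate 1 of both groups gave 1082 and 1019. In the blocked fit, leaving out replicates 1, 2 and 3 gave 1153, 1551 and 225 rises and 1079, 1368 and 194 falls. The drop without replicate 3 was in the adjusted counts only. By unadjusted p under 0.05 that fit gave 1459 rises and 1253 falls, against 1360 and 1171 in the full blocked fit. Where an arm or pairing was left with few libraries, the spread was pooled over the rest. Of the 2202 blocked calls, 1995 held with the length trend removed and 410 without replicate 3. Genes that differed between lines numbered 167, 1043 with the replicate block within cell line, and 67 to 257 when 1 library was left out. No named gene called in either of the fits compared changed sign, but in most settings some named genes called in neither did, at most 7 per setting. List medians near 0 changed sign between scalings for NAD+, glycolysis, fatty acid synthesis, IGF-binding proteins and epithelial markers. They did so with the gene length trend removed for genes of mitochondrial DNA, the BCL2 family, tubulins and secreted cytokines. Without replicate 1 they did so for the TCA cycle, secreted cytokines and TGF-beta.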
